A study of Homo sapiens with 2 samples.

Results

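Peaks in gene deserts are the HNRNPK ChIP-seq peaks of H1299 cells that lie far from any protein-coding gene. A peak of chromosomes 1 to 22 was a member when its midpoint lay more than 100 kb from the span of every protein-coding gene of the RefSeq annotation of GRCh38, with chromosome 21 below 9 Mb left out. This rule took 2818 of the 22351 peaks of the list (12.6%). ChIP-seq sequences the DNA pulled down with a protein by an antibody (IP) beside sheared DNA that saw no pull-down (input). The data held 1 IP library made with an HNRNPK antibody from Proteintech and 1 input library made with no antibody. Both came from untreated H1299 cells, an established human cell line labelled as lung adenocarcinoma. The peak list was the authors', read here as peaks of the IP over the input, and reads per library were not analysed here. Since each kind had 1 library, no value carries a replicate error, no test between conditions was possible, and peaks are not replicates of a condition.

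HNRNPK is an RNA- and DNA-binding protein whose KH domains take up short runs of cytosines in single strands. It acts in transcription, splicing and RNA stability and shuttles between nucleus and cytoplasm. Gene deserts are long stretches without protein-coding genes. Some carry distant enhancers of the developmental genes at their edges, others are filled with long noncoding RNA genes, and those around centromeres hold satellite repeats and copies of duplicated segments, where short reads are hard to place.

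No genome sequence was used here, so the bases under most members were not read. RefSeq promoter windows, which run from 250 bases before to 50 bases after a gene start, were given for 21 autosomes, and 2846 of these windows lay in deserts, none of them of a coding gene. Of the 2846, 15 windows of noncoding genes were overlapped by a total of 13 members. The 5 printed here hold the 3 highest fold enrichments among the 13 members, a start in the desert beside TSHZ3, and the start of FAM27E4. Each is given 5′ to 3′ on the strand of its gene (GRCh38.p14), with the bases under the peak in capitals. The lncRNA gene LOC124901654 starts at chr7:63891301-63891600 on the minus strand, 108 kb from ZNF722. LOC105378129, an lncRNA gene between TTLL2 and AFDN, starts at chr6:167547391-167547690 on the plus strand. LOC107985081, between SDK2 and RPL38, starts at chr17:73911874-73912173 on the plus strand. LINC01837, between TSHZ3 and ZNF507, has a start at chr19:31945419-31945718 on the minus strand. FAM27E4, listed as an lncRNA gene, starts at chr9:61856455-61856754 on the plus strand.
LOC124901654: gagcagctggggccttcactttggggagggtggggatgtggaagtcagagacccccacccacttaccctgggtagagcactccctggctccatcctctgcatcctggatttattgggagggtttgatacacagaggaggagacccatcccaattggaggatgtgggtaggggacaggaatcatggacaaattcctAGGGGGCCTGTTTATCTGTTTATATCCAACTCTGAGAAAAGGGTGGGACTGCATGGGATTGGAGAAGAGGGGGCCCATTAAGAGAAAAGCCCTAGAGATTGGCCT
LOC105378129: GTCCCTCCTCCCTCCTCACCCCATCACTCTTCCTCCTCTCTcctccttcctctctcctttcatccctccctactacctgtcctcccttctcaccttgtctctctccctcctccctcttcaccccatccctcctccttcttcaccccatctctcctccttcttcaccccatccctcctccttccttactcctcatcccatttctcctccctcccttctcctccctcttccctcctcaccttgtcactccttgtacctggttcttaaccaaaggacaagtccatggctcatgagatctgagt
LOC107985081: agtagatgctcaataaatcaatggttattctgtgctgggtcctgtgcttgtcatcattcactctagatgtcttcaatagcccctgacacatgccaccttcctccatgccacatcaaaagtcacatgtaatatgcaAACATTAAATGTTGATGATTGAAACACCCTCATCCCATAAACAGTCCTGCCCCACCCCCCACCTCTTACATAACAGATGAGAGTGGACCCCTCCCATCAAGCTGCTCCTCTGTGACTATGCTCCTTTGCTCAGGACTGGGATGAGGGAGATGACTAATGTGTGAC
LINC01837: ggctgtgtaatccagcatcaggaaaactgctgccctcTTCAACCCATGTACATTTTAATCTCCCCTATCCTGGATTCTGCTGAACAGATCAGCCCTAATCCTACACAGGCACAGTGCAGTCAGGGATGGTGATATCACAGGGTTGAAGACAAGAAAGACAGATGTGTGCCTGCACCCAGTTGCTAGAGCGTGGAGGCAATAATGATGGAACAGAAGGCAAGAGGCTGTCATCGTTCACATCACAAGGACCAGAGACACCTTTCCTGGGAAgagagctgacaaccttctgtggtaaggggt
FAM27E4: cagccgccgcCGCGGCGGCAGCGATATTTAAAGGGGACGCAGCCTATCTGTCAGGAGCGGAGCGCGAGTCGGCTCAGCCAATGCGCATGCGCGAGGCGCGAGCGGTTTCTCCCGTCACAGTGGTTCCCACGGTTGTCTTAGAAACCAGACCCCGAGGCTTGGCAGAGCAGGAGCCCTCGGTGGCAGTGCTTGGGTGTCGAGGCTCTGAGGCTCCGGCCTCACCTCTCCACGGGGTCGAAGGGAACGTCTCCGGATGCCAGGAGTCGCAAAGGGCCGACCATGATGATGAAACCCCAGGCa

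The peak at LOC124901654 had a fold enrichment of 6.10, which is the ratio of IP coverage to the local background after 1 is added to each, and covered the last 105 bases of the window, the first 50 of the gene among them. The peak at LOC105378129 had a fold enrichment of 5.92 and reached only the first 41 bases of the window. That window was 84.0% C or T on the strand of the gene, against a median of 49.7% over 33689 windows, and held TCCC 14 times on that strand against a median of 2. The peak at LOC107985081 had a fold enrichment of 5.25, and the 165 bases under it held a run of 6 cytosines and 1 CTAATG. The peak at LINC01837 had a fold enrichment of 3.96 and covered 233 bases. The peak at FAM27E4 had a fold enrichment of 3.51, and its 289 bases were 64.0% G or C and held GCGAGG.

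For the shares that follow, each set of letters was searched on both strands. GCGAGG stood in 2 of the 15 overlapped windows, in 5.66% of all desert windows and in 22.1% of all 33689 windows. CTAATG stood in 2 of the 15, against 11.7% and 6.52%. CCCC stood in 13 of the 15 windows, against 71.1% of desert windows and 89.6% of all. TCCC, which shares bases with CCCC where a T stands before the run, also stood in 13, against 89.3% and 95.9%. A match is a string of letters and not a binding site. The G or C content of the overlapped windows had a median of 51.3% (range, 42.0% to 64.7%), against 42.7% in desert windows and 58.7% in all windows. Starts of noncoding genes were overlapped in 0.527% of desert windows (Wilson 95% confidence interval, 0.320% to 0.868%). For noncoding genes up to 100 kb from a coding gene the share was 1.61% (1.38% to 1.88%), or 156 of 9707 windows. Peaks of all autosomes were also sparser in deserts, with 3.39 per Mb against 9.65 in the rest, so the lower share was not particular to these starts. None of the 112 miRNA hairpins in deserts was overlapped by a member, and 6 lay within 2 kb of one, among them MIR4418 and MIR6817.

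Deserts held fewer peaks than their length. Of the 21814 autosomal peaks placed, 12.9% were members (Wilson 95% confidence interval, 12.5% to 13.4%), while deserts made up 29.7% of the autosomes, 831 of 2800 Mb. Density was 3.39 peaks per Mb in deserts and 9.65 in the rest, a ratio of 0.352 (0.338 to 0.366). Intervals in the text cover counting error only. Lengths were counted from the first to the last gene or peak on each chromosome, with assembly gaps kept. Without the longest stretch free of any annotated gene on each chromosome, with its peaks also left out, the ratio was 0.388. The definition of a desert moved the share: it was 19.6% with a limit of 50 kb, 7.22% with 200 kb and 1.34% when noncoding genes also counted as genes.

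Outside coding genes, density fell with distance from them. It was 9.23 peaks per Mb inside coding genes and 14.1 within 10 kb outside them, and it went down through 10.6, 8.79 and 7.36 in the bins from 10 to 25, 25 to 50 and 50 to 100 kb. Inside the deserts it went on falling, from 5.72 at 100 to 200 kb (1243 peaks) to 3.33 at 200 to 500 kb (968 peaks) and 2.35 at 500 to 1000 kb (416 peaks). Beyond 1000 kb it was 1.32 (Poisson 95% confidence interval, 1.14 to 1.52; 191 peaks). These lengths keep the longest stretch free of any annotated gene on each autosome, 104 Mb in all with 97 members. Only 39 of the 191 peaks lay in such stretches. The density beyond 1000 kb without them was not computed, so the size of the last step may depend on keeping them. The median member lay 226 kb from the nearest coding gene, and the farthest lay 4600 kb away, on chromosome 22 before OR11H1.

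**Figure D1:**
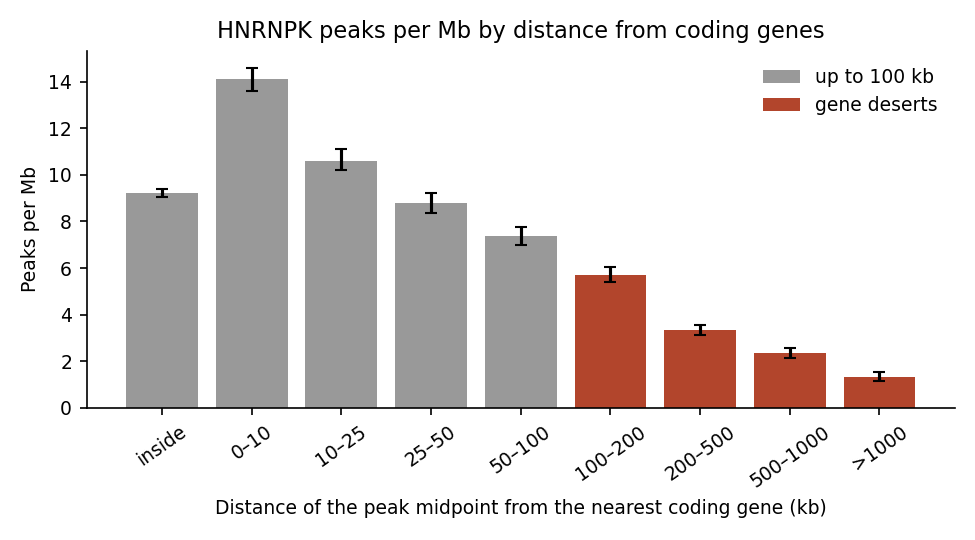
Peaks per Mb of sequence (bars, with Poisson 95% intervals) by distance of the peak midpoint from the nearest coding gene in kb, for peaks inside coding genes, up to 100 kb outside (grey) and in gene deserts (red). Outside coding genes the bars fall from 14.1 within 10 kb to 1.32 beyond 1000 kb, with the longest gene-free stretch of each autosome kept in the lengths.

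Every autosome had a lower density in its deserts than in the rest of its length, 22 of 22. The ratio ranged from 0.224 on chromosome 16 to 0.701 on chromosome 8, with a median of 0.383. On chromosome 16, 10.4 of the 29.3 Mb of desert were its longest stretch free of any annotated gene, with 0 members. Ratios by chromosome without such stretches were not computed. Chromosome 19 had the densest deserts, 18.3 peaks per Mb over only 6.33 Mb of desert, against 39.8 in the rest. Chromosome 20 followed with 8.12 against 16.9. Chromosome 13 had the sparsest, with 18 members in 39.7 Mb, or 0.453 per Mb, against 1.54 in the rest. Chromosome 2 had the most members, 285, and chromosome 6 followed with 242. Over the 22 autosomes the densities in deserts and elsewhere had a Spearman correlation of 0.728 and a Pearson correlation of 0.933, given as a description, since all points share the same 2 libraries. The density of deserts thus spanned a wider range between chromosomes than the ratio of deserts to the rest did.

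**Figure D2:**
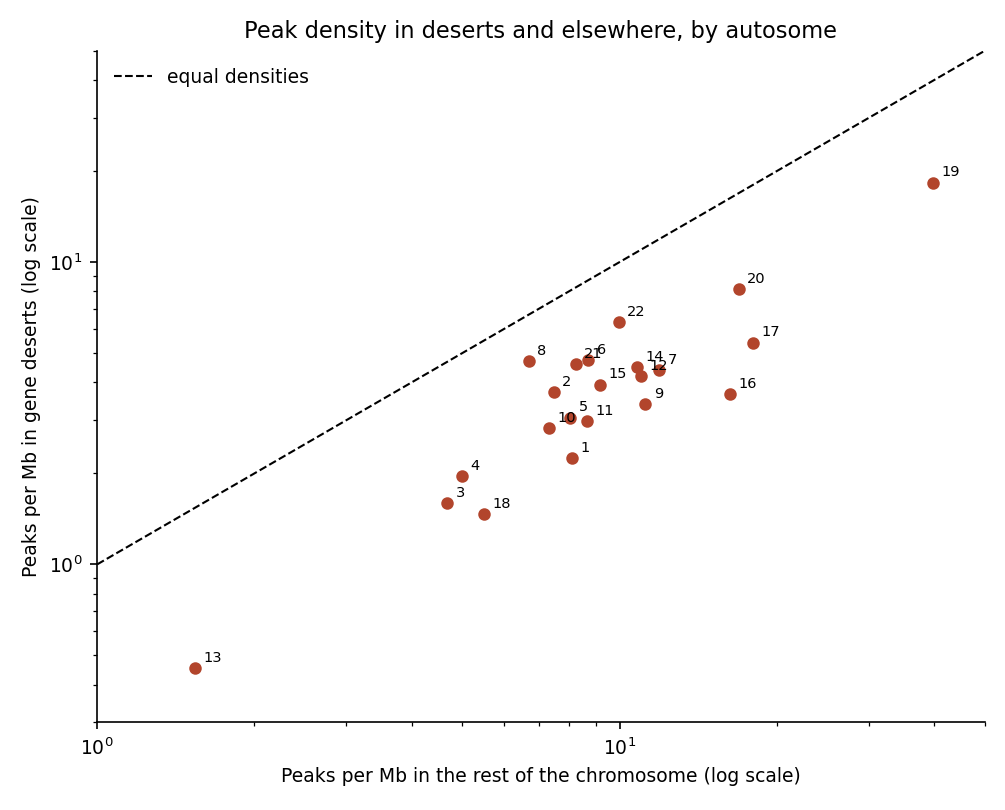
Peaks per Mb in gene deserts (y axis, log scale) against peaks per Mb in the rest of the same chromosome (x axis, log scale), with 1 point for each of the 22 autosomes, marked with its number, and a dashed line of equal densities. All points lie below the line, from chromosome 13 at 0.453 to chromosome 19 at 18.3 peaks per Mb of desert.

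Single members were about as strong as other peaks. Their median fold enrichment was 3.61 (95% interval from order statistics, 3.58 to 3.65; range, 2.02 to 9.35), against 3.58 for the other autosomal peaks. An FDR under 0.05 was given to 444 members, or 15.8% (14.5% to 17.1%), beside 15.5% of all peaks of the list and 14.9% (14.4% to 15.4%) of the other autosomal peaks. A fold enrichment of at least 5 was reached by 105 members, or 3.73% (3.09% to 4.49%), beside 3.19% of all peaks and 3.09% of the others. An FDR under 0.001 was given to 77 members, or 2.73%, beside 2.61% of all peaks and 2.12% of the others. These shares were near those of the whole list. Members were somewhat shorter, with a median of 262 bp (259 to 267) against 273 (271 to 275), and 995 members (35.3%) had the lowest length in the list, 233 bp, beside 32.0% of all peaks and 31.7% of the others. Peaks of 500 bp or more made up 4.12% of members (3.44% to 4.91%) and 6.39% of the others (6.05% to 6.75%).

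The depth behind a single member was low. Pileups, the IP coverage at the peak, were whole multiples, to within 0.00816 of a step, of a step of 0.974 scaled fragments, which is read here as 1 fragment. On this reading the median member rested on 8 fragments, as did the median peak of the list, and members ranged from 5 to 105. Of the members, 1770 (62.8%) had 8 or fewer. No member with fewer than 9 fragments had an FDR under 0.05. The 3 members nearest to the limit of 100 kb were beside SEL1L, PRSS58 and BOD1 with fold enrichments of 3.85, 3.81 and 2.71. The 3 peaks just short of it were beside CHST1, ALX4 and CRYBB2 with 4.46, 3.13 and 3.65.

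The local background is the coverage that the peak caller took as the level without binding, and it was recovered from the pileup and the fold enrichment. Its median was 1.21 (1.21 to 1.23) in members and 1.28 (1.28 to 1.30) in the other autosomal peaks, so members more often stood on a low background. Among those others, peaks 50 to 100 kb outside coding genes had the same median as members, 1.21 (1.19 to 1.23), so this median was not particular to deserts. The lowest level held 806 members (28.6%) and 22.2% of the others. At the upper end the order turned, and a background of 5 or more was found in 55 members, or 1.95% (1.50% to 2.53%), against 1.11% (0.966% to 1.26%) of the others. Over all peaks of the list, X, Y and contigs included, the share was 1.77%, within the interval of the members. The share with an FDR under 0.05 was highest at high backgrounds in both groups but did not rise at each step. From the lowest level up through the 5 classes it was 12.2%, 15.9%, 15.2%, 24.2% and 41.8% (29.7% to 55.0%) among members, and 13.1%, 15.5%, 12.8%, 20.3% and 39.5% among the others. At a background of 5 or more the members' median fold enrichment was only 2.76, against 3.82 at the lowest level. Of the 988 members with a background of at least 1.5, 438 (44.3%) had one within 0.005 of a whole number, against 39.5% of the others.

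**Figure D3:**
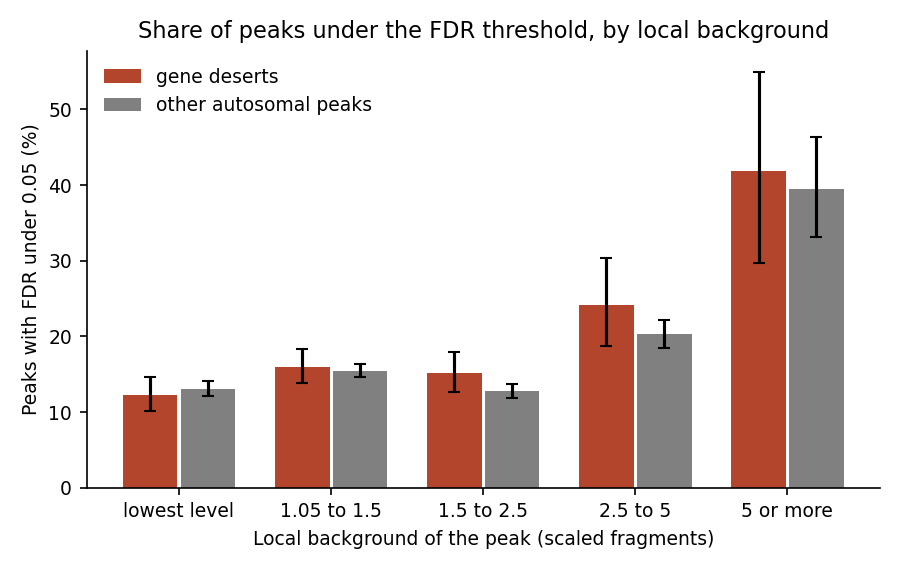
Share of peaks with an FDR under 0.05 in percent (bars, with Wilson 95% intervals) by local background of the peak in scaled fragments, for gene deserts (red) and the other autosomal peaks (grey). Both are highest in the class of 5 or more, at 41.8% and 39.5% with overlapping intervals, and both dip in the middle class.

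**Figure D4:**
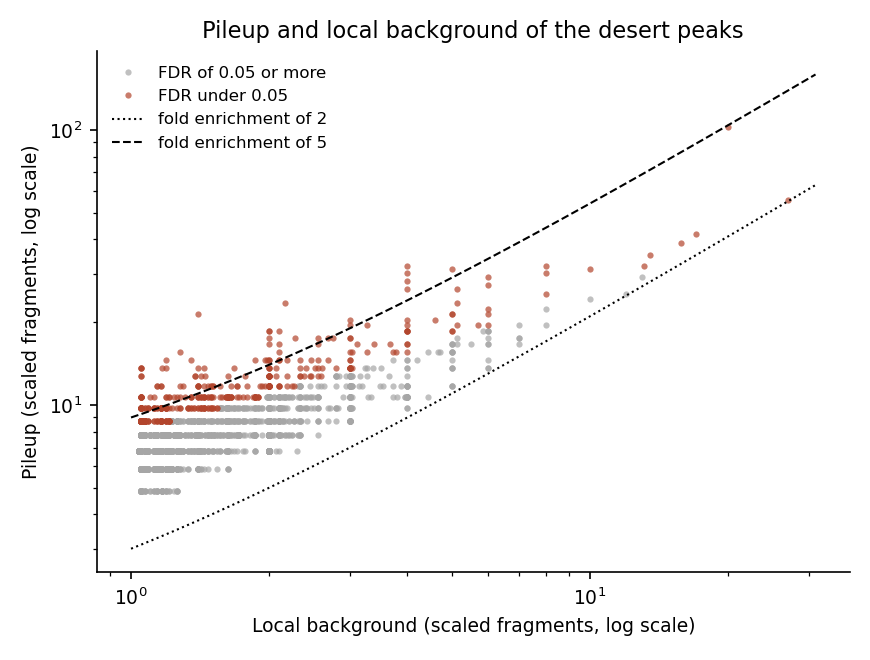
Pileup against local background of each of the 2818 members, in scaled fragments on log axes, coloured by FDR, with lines at fold enrichments of 2 and 5. Most members sit at backgrounds near 1 with few fragments, and the member with the highest pileup, 102, sits at a background of 20.0.

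The member with the highest fold enrichment, 9.35, lay at chr18:15862632-15862911, between ANKRD30B and ROCK1, in the longest stretch of chromosome 18 free of any annotated gene. It rested on 22 fragments over a background of 1.40, had an FDR of 1.48e-13, and its nearest neighbouring peak was 858 kb away. The next, at chr19:31640277-31641088, had a fold enrichment of 7.69 and an FDR of 6.84e-12 and lay 290 kb from TSHZ3, a gene of a teashirt zinc finger transcription factor. It had 10 other peaks within 100 kb. The next, at chr15:70449143-70450291, had a fold enrichment of 7.27 and lay 352 kb from TLE3, a gene of a transcriptional corepressor, and 205 kb from UACA. It was 1149 bp long.

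A fold enrichment of 7.15, with 14 fragments over a background near the lowest level and an FDR of 8.46e-07, was given to 3 members. The member at chr14:105718797-105719142 lay in the immunoglobulin heavy chain locus IGH. The member at chr2:8390459-8391100 lay 291 kb from ID2, whose product inhibits helix-loop-helix transcription factors. The member at chr6:167507971-167509380, in the lncRNA gene LOC107986546, lay 166 kb from TTLL2 and 318 kb from AFDN, which codes for the junction protein afadin. LOC107986546 spans only 12 kb and held 3 members. The remaining 4 of the 10 highest had fold enrichments from 6.67 to 7.13 and 13 to 15 fragments. They lay on chromosome 21 beside LOC101927345, on chromosome 9 in LOC128966771 and 836 kb before FOXD4L6, a forkhead gene of a duplicated family, and on chromosome 10 in LOC101929540. The last of these had no other peak within 100 kb.

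The members with the highest pileup were other peaks. The highest, at chr10:128464328-128464743, had a pileup of 102, or 105 fragments, over a background of 20.0. It lay 338 kb from MKI67, the gene of the proliferation marker Ki-67, and 1003 kb from MGMT, a DNA repair gene. Its fold enrichment was 4.92 and its FDR 1.43e-32, and it had no other peak within 100 kb. The next 4 had 36 to 57 fragments, backgrounds of 13.5 to 27.0 and fold enrichments of only 2.02 to 2.48. They lay on chromosome 20 before DEFB115, a defensin gene, on chromosome 14 before OR11H12, and, for 2 of them, on chromosome 4 between CWH43 and DCUN1D4. The last 2 were 0.185 kb apart and belonged to a group of 4 members within 4.96 kb, all with an FDR under 0.05 and backgrounds of 10 to 15.8. Fold enrichments in this group were only 2.36 to 2.92. Its 4 are a small count beside 15.5% of all peaks of the list and 41.8% of members with a background of 5 or more. Copy number in H1299 cells and reads with several matches were not analysed here.

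The autosomes held 1533 stretches with some length beyond 100 kb from every coding gene, and 758 of them (49.4%) held a member. Of the 1533, 21 lay at the end of a chromosome or, on chromosome 21, at the cut of 9 Mb, and the rest between 2 coding genes. A single member was found in 282 stretches, and 50 stretches with 10 or more held 997 members (35.4%). Longer stretches held more members, with a Spearman correlation of 0.496 between desert length and members over the 1533 stretches, given as a description. Of 243 stretches with over 1 Mb of desert, assembly gaps included, 52 held none. The longest empty stretch lay on chromosome 16 between LOC124903767 and SHCBP1, with 12 Mb of desert around the centromere. Between AGA and TENM3 on chromosome 4, 3.81 Mb of desert were empty.

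**Figure D5:**
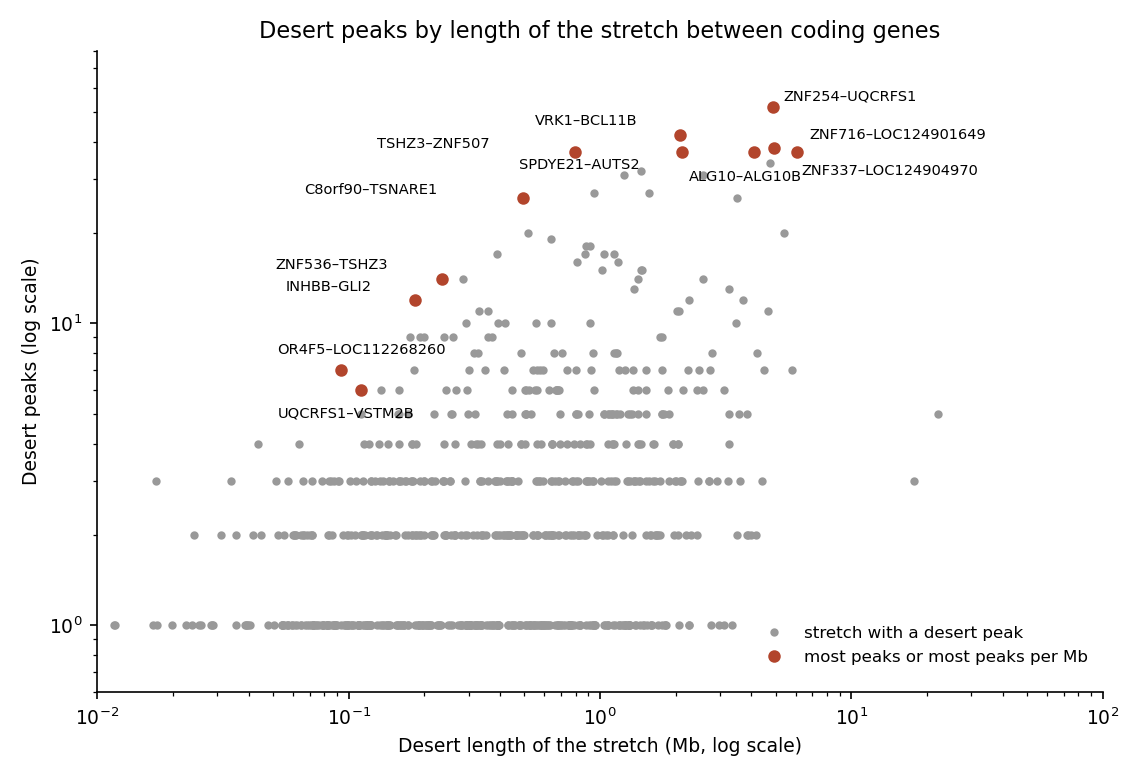
Desert peaks (y axis, log scale) against desert length in Mb (x axis, log scale) for each stretch that held a desert peak. Stretches with most peaks or, among those with at least 5 peaks, most peaks per Mb are in red and named by their flanking genes. ZNF254–UQCRFS1 holds the most, 52, and TSHZ3–ZNF507 holds 37 in only 0.795 Mb.

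The stretch with the most members, 52, lay on chromosome 19 between ZNF254 and UQCRFS1, which codes for the Rieske protein of respiratory complex III. It spans 5.08 Mb with the centromere inside, and its members occupied only 1.34 Mb, from 27640192 to 28982484. Of the 52, 11 had an FDR under 0.05, beside 15.5% of all peaks of the list. A group of 8 members within 25.9 kb, starting at 28281912, was the largest in the deserts when members up to 10 kb apart were joined, and 5 of the 8 had an FDR under 0.05. VRK1–BCL11B on chromosome 14, beside a transcription factor gene of T cell development, held 42 members at 20.1 per Mb, 6 with an FDR under 0.05. ZNF337–LOC124904970 on chromosome 20 held 38 over 4.92 Mb of desert, with a longest gap of 2959 kb between neighbours. There were 37 members in each of 4 stretches, ALG10–ALG10B on chromosome 12, ZNF716–LOC124901649 and SPDYE21–AUTS2 on chromosome 7, and TSHZ3–ZNF507 on chromosome 19. AUTS2 is a gene of neural development. ALG10–ALG10B, ZNF716–LOC124901649 and ZNF337–LOC124904970 hold centromeres.

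TSHZ3 stood between 2 stretches with many members for their length. On one side, ZNF536–TSHZ3 held 14 members at 59.2 per Mb, and on the other TSHZ3–ZNF507 held 37 at 46.6 per Mb. Together they held 51 members in 1.03 Mb of desert, 10 of them with an FDR under 0.05, beside 15.5% of all peaks of the list. Median backgrounds there were above the median of members, 2.39 and 2.38, but near the 2.31 of all deserts of chromosome 19. Those deserts had 18.3 members per Mb, 19.8% of them with an FDR under 0.05, and the rest of that chromosome had 39.8 peaks per Mb. A high background was thus not particular to the stretches beside TSHZ3. UQCRFS1–VSTM2B, also on chromosome 19, held 6 members at 53.4 per Mb. The highest density among stretches with at least 5 members was 74.8 per Mb for 7 members between OR4F5 and LOC112268260 near the end of chromosome 1, with a median background of 5.0, and 3 of the 7 lay in WASH9P. INHBB–GLI2 on chromosome 2, beside a transcription factor gene of the Hedgehog pathway, held 12 members at 65.2 per Mb with a median background of 1.18. None of the 12 had an FDR under 0.05, a small count beside 15.5% of all peaks of the list, and they rested on 5 to 9 fragments each. C8orf90–TSNARE1 on chromosome 8 held 26 at 52.7 per Mb, 5 of them with an FDR under 0.05, beside the same 15.5%.

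Members in the longest gene-free stretches had higher backgrounds than the rest while the intervals of their median fold enrichments overlapped. The longest stretch free of any annotated gene on each autosome, which holds the centromere on most of them, held 97 members in 104 Mb, or 0.936 per Mb, against 3.74 for the other members. Their median background was 1.89 (1.70 to 2.0), against 1.21 (1.19 to 1.23), and an FDR under 0.05 was given to 33 of the 97, or 34.0% (25.4% to 43.9%), against 15.1% (13.8% to 16.5%). Their median fold enrichment was 3.71 (3.57 to 3.82), against 3.61 (3.58 to 3.65). Chromosome 12 had 24 of these members and chromosome 8 had 22, while chromosomes 2, 13, 15, 16, 20 and 22 had 0. Among the 191 members over 1000 kb from every coding gene, 24.6% had an FDR under 0.05 and 39 lay in these stretches. For the other 152 the share was 19.7% (14.2% to 26.8%) with a median background of 1.85. Of the 191, 33 lay on chromosome 22, 24 on chromosome 14 and 21 on chromosome 19. The part of repeated sequence in these values was not tested.

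Noncoding genes together held a little more than their share, while lncRNA genes alone held about theirs. The midpoint of 813 members, or 28.9% (27.2% to 30.6%), lay in the span of a noncoding gene, while such spans made up 24.9% of desert length. Density was 3.94 members per Mb inside these spans and 3.21 outside. An FDR under 0.05 was given to 15.4% (13.1% to 18.0%) of members inside and 15.9% (14.4% to 17.6%) outside. Genes of lncRNA held 656 members, or 23.3%, about their 23.1% of desert length, at 3.41 per Mb. Transcribed pseudogenes held 70 at 11.1 per Mb and other pseudogenes 59 at 10.6. Entries typed as other held 49 at 13.1, and these lay in antigen receptor loci, with 31 in IGH, 11 in IGK, 3 each in IGL and TRB and 1 in TRA. In all, 582 noncoding genes held a member and 58 held at least 3. On chromosome 19, LINC02987 held 12, LINC01837 and the transcribed pseudogene LOC100420587 held 7 each and VSTM2B-DT held 6. Elsewhere LOC105373592 held 7, and LINC01933 and PCAT29 held 6 each. PCAT29 spans 104 kb on chromosome 15 and its members had a median fold enrichment of 4.01 over a background of 1.08. CASC15, an lncRNA gene of chromosome 6 named for cancer susceptibility, held 3 with fold enrichments from 3.46 to 4.27.

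Antigen receptor loci can count as deserts under the rule, because their gene segments are not listed as protein-coding. IGH, the immunoglobulin heavy chain locus, held 31 members among its 35 peaks in 1293 kb, the most of any noncoding entry, and IGK, the kappa light chain locus, held 11. The lambda locus IGL and the T cell receptor beta locus TRB held 3 each, of 14 and 5 peaks in all, and TRA held 1. TRG had 2 peaks but no part of it lay in a desert. Within IGH, 18 members lay among the constant region genes or before them, in 270 kb, with a median fold enrichment of 3.72 and 3 at an FDR under 0.05. The 940 kb of variable segments held 10 members, with a median of 3.59 and 0 at an FDR under 0.05, and 3 lay between. The counts of 3 and 0 at an FDR under 0.05 are too small to set the 2 parts apart, beside 15.5% of all peaks. By all members the parts differed, with 18 in 270 kb against 10 in 940 kb. With antigen receptor segments counted as coding, 2765 members were left.

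Genes at the edges of deserts were compared by list. Of all 2601 coding genes that border a desert, 1375 (52.9%) bordered one with a member, and all deserts together had 3.39 members per Mb. Of 54 bordering genes on a list of developmental transcription factors, 38 (70.4%) bordered a member, with 229 members at 4.96 per Mb. Their deserts were longer, with a median of 576 kb against 218 kb. The members were unevenly spread, since TSHZ3 had 51, BCL11B 42, IRX2 11, EBF1 10 and IRX1 9, while DACH1 had 0 in 1.77 Mb of desert. Without the deserts of TSHZ3 and BCL11B, the density was 3.16 per Mb, below that of all deserts. IRX1 and IRX2 are neighbouring homeobox genes, and EBF1 is a factor of B cell development. SOX9, a factor of cartilage and testis development, had 7 in 2.06 Mb. None of these had an FDR under 0.05, a small count beside 15.5% of all peaks of the list.

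Of 50 bordering genes on a list of neuronal adhesion and guidance genes, 37 (74.0%) bordered a member, but the density was only 1.30 per Mb, with 144 members in 110 Mb. CNTNAP5 had 17, the cadherin gene CDH4 15 at 14.8 per Mb, TENM2 13 and PCDH7 11. Of 50 zinc finger genes named ZNF with a number, 33 (66.0%) bordered a member, with 275 members at 7.68 per Mb. ZNF254 had 52, ZNF337 and ZNF716 had 38 each and ZNF507 had 37. Of 20 olfactory receptor genes, 9 (45.0%) did, with 55 members at 3.84 per Mb. OR11H1 had 34 of these, in a stretch that starts at the short arm of chromosome 22. Without the deserts of OR11H1 and OR11H12, 14 members at 2.02 per Mb were left. Without the 2 genes with most members, the adhesion and guidance list had 1.06 per Mb and the zinc finger genes 7.11. The 2 zinc finger genes left out were ZNF254 and ZNF337, so the 38 members of ZNF716 and the 51 beside TSHZ3 still counted in the 7.11. An FDR under 0.05 was given to 13.5%, 14.6%, 18.9% and 41.8% of the members in these 4 sets of deserts in turn, against 15.8% of all members, and the last share rests on 23 of 55. A desert with a list gene on each side counts for both, so the 51 members beside TSHZ3 are also among those of the zinc finger genes.

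Members stood farther apart than other peaks. The lower density of deserts, 3.39 against 9.65 peaks per Mb, enters these distances, so they are not a separate result. The median distance to the nearest autosomal peak was 33.8 kb for members and 14.6 kb for the others. A neighbour within 10 kb was found for 28.4% of members (26.7% to 30.0%) and 42.2% of the others (41.5% to 42.9%), and within 1 kb for 6.60% (5.74% to 7.58%) and 8.88% (8.48% to 9.29%). Joining members up to 10 kb apart gave 2344 groups, of which 2027 were single members, 227 pairs, 50 groups of 3 and 40 groups of 4 or more. After the group on chromosome 19, the largest had 7 members each and lay on chromosome 1 from 180272 to 202057, on chromosome 21 from 10401123 to 10419927 and on chromosome 7 from 63555690 to 63580735. The first 2 had 4 and 5 members with an FDR under 0.05 and backgrounds of at least 2.84, and the group on chromosome 7 had 0 with backgrounds up to 3.0. These are small counts beside 15.5% of all peaks of the list. The stretches bounded by a coding gene on only 1 side held 120 members. Among them, the stretch before LOC101927345, with 9 members, starts at the cut of 9 Mb on chromosome 21 and not at a chromosome end.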

How the data were processed

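1 HNRNPK IP library and 1 input library of H1299 cells were mapped to their groups by their labels. The submitters' processing notes name Trimmomatic 0.36, STAR 2.5.3a, MACS2, bedtools and HOMER and the build GRCh38, without roles. Fold enrichment, as deposited, is the ratio of IP coverage over a local background, with 1 added to both. Each p-value and q-value (FDR) came from the authors' peak caller. Pileup, as deposited, is coverage by IP fragments after scaling, a signal. Names of peaks spell the line A1299, and the list was read as belonging to the H1299 IP.

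Local background was computed as pileup plus 1, divided by fold enrichment, minus 1. Peaks were placed by midpoint on 19866 coding and 39095 noncoding gene spans (RefSeq, GRCh38.p14), without 718 entries given in scaffold coordinates. Left out were 56 peaks of chromosome 21 and 481 on X, Y and contigs. Shares carry Wilson, medians order-statistic and densities Poisson 95% intervals. Named were the 10 members highest in fold enrichment, the 5 highest in pileup, noncoding genes with at least 3, members near the limit and list genes. Also named were the stretches with most members or, among those with at least 5, most per Mb. WASH9P, LOC107986546 and CASC15 were picked out from these, and empty stretches, groups of neighbours, printed windows and the 2 genes left out of each list were chosen, after their values were seen. Members and lists were chosen with earlier results of these data known. Placement was tested on simulated data. Motifs under peaks need a genome sequence, which was not used here. Computations used Python 3.11.15, numpy 2.4.6, scipy 1.17.1, pandas 2.3.3 and matplotlib 3.10.9.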

Additional observations from a re-analysis of the deposited data

How the results depend on the processing

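Of 62 values under alternatives, 41 stayed within the 95% interval of the main value. The ratio of densities stayed below 1 under all 11 alternatives run for it. With limits of 50 and 200 kb, the share of members was 19.6% and 7.22% and the ratio of densities 0.420 and 0.277. With all RefSeq gene spans, the share was 1.34%, the ratio 0.173, the median fold enrichment 3.71, the share with an FDR under 0.05 20.9% and the median background 1.27. The shares of members follow from the definition of a desert, and why the other values moved was not tested. With only peaks at an FDR under 0.05, the share was 13.5%, the ratio 0.371, the median fold enrichment 4.71 and the background 1.40. With only fold enrichments of at least 5, the share was 15.2%, the ratio 0.424, the median fold enrichment 5.29, the share with an FDR under 0.05 100% and that in noncoding genes 31.4%. The median of 5.29 follows from its threshold, and the cause of the other moves was not tested. With X and Y the ratio was 0.334, without the longest gene-free stretches 0.388, and without the lowest level the median background was 1.49. The alternatives with scaffold entries, antigen receptor segments as coding, and, for all values but the ratio, those without the longest gene-free stretches were chosen after seeing the data. Motif alternatives under peaks were not run. With 1 library in each group, no replicates were paired or left out. A median of 8 fragments limits single peaks.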
